A study of Mus musculus with 5 samples.

Results

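The genes described here encode collagens, laminins, fibrillins, nidogens, perlecan, fibronectin and tenascin-C, the proteins that build basement membranes and the fibrous matrix around cells. They were chosen by symbol among protein-coding genes and selected on their summed count, with a minimum of 10 counts over all 5 libraries. Col2a1, Col10a1 and Col11a1 were left out. Of 39056 genes in the count table, 62 had such a symbol, 16 of these were under the minimum, and 43 became members. Just above the minimum, Col6a6 and Lamc3 each had 11 counts and were kept, and below it Col19a1 had 6 and was not. The minimum favoured genes read in either genotype: 22 members had under 10 counts in the WT libraries together, so that these could enter only with reads from the null libraries. No count or median over the members is therefore support for a change.

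RNA was sequenced from Lin-Sca-1+Kit+ (LSK) cells of bone marrow, the fraction that contains blood stem cells and multipotent progenitors. The mice were of C57BL/6 background and 15 days old. The comparison was between 2 libraries from wild-type (WT) mice and 3 from Gabbr1 null mutants, Gabbr1 being the gene for a subunit of the GABA-B neurotransmitter receptor. Each library came from about 12000 sorted cells, and the labels do not say whether each came from a separate animal, so the p-values below reflect variation among libraries, part of which may be technical. The sources used here do not say how the null allele was made, and no treatment is named for either genotype.

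Basement membranes are thin sheets on which endothelial, epithelial, muscle and fat cells rest. Laminin trimers, each of an alpha, a beta and a gamma chain, and a network of collagen IV are the main polymers, and nidogens and the heparan sulphate proteoglycan perlecan link them. Fibrillar collagens form the tension-bearing fibres of bone, cartilage and connective tissue. In bone marrow such matrix is known mainly as a product of endothelial, stromal, bone and cartilage cells, and blood progenitors bind it through integrins.

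Total counts were between 6972753 and 8150774 per library, and 1 CPM (counts scaled to library size with TMM factors) stood for 7.02 to 8.13 counts. Kit, a receptor of the sorting gate, was 995 and 1049 CPM in WT, against 864, 987 and 883 CPM in null, each null library below WT. Ly6a, the Sca-1 gene of the same gate, was 26.8 and 30.3 CPM in WT, against 29.85, 12.9 and 24.0 CPM in null. Neither differed by edgeR at an adjusted p under 0.05 (0.643 for Kit and 0.644 for Ly6a). Gabbr1 was 49.5 and 57.4 CPM in WT, against 38.5, 34.8 and 33.0 CPM in null. Those counts cover the whole gene and do not show which part was deleted. Sex is not given in the labels. Null library 1 had 22532 counts of Xist and 0 of 4 Y-linked genes, and each other library had at most 21 and at least 1140. Values are listed throughout in the order WT libraries 1 and 2, then null libraries 1, 2 and 3.

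Of the 43 members, 30 passed the expression filter and were tested. Null libraries had higher levels of 12 members and lower levels of 0 (edgeR adjusted p under 0.05, with DESeq2 and limma-voom also calling 0 lower). Among all 13467 genes tested, 2.15% were called higher and 0.334% lower. With an unadjusted p under 0.05, 21 members were higher and 1 was lower, beside 7.99% and 4.84% of all tested genes. The 12 members were Fn1, Hspg2, Col1a2, Nid1, Tnc, Col27a1, Col6a3, Lama4, Lamb1, Col5a2, Col6a1 and Col5a3. Of these, 8 had under 10 counts in WT and owed their place on the list to the null libraries. The median fitted log2 fold change of the tested members, null over WT, was 2.16, also with the members that had no WT count set at their lower bound, and that of all tested genes was -0.0045. In bulk RNA, a larger share of cells that make a transcript and more transcript per cell cannot be told apart. The calls depended on both WT libraries: those other than Hspg2 and Nid1 were lost when either WT library was left out. A filter of at least 1 CPM in every library drops members near 0 in any library before testing. It tested 16 members and called 5, of which 4 were among the 12.

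**Figure D1:**
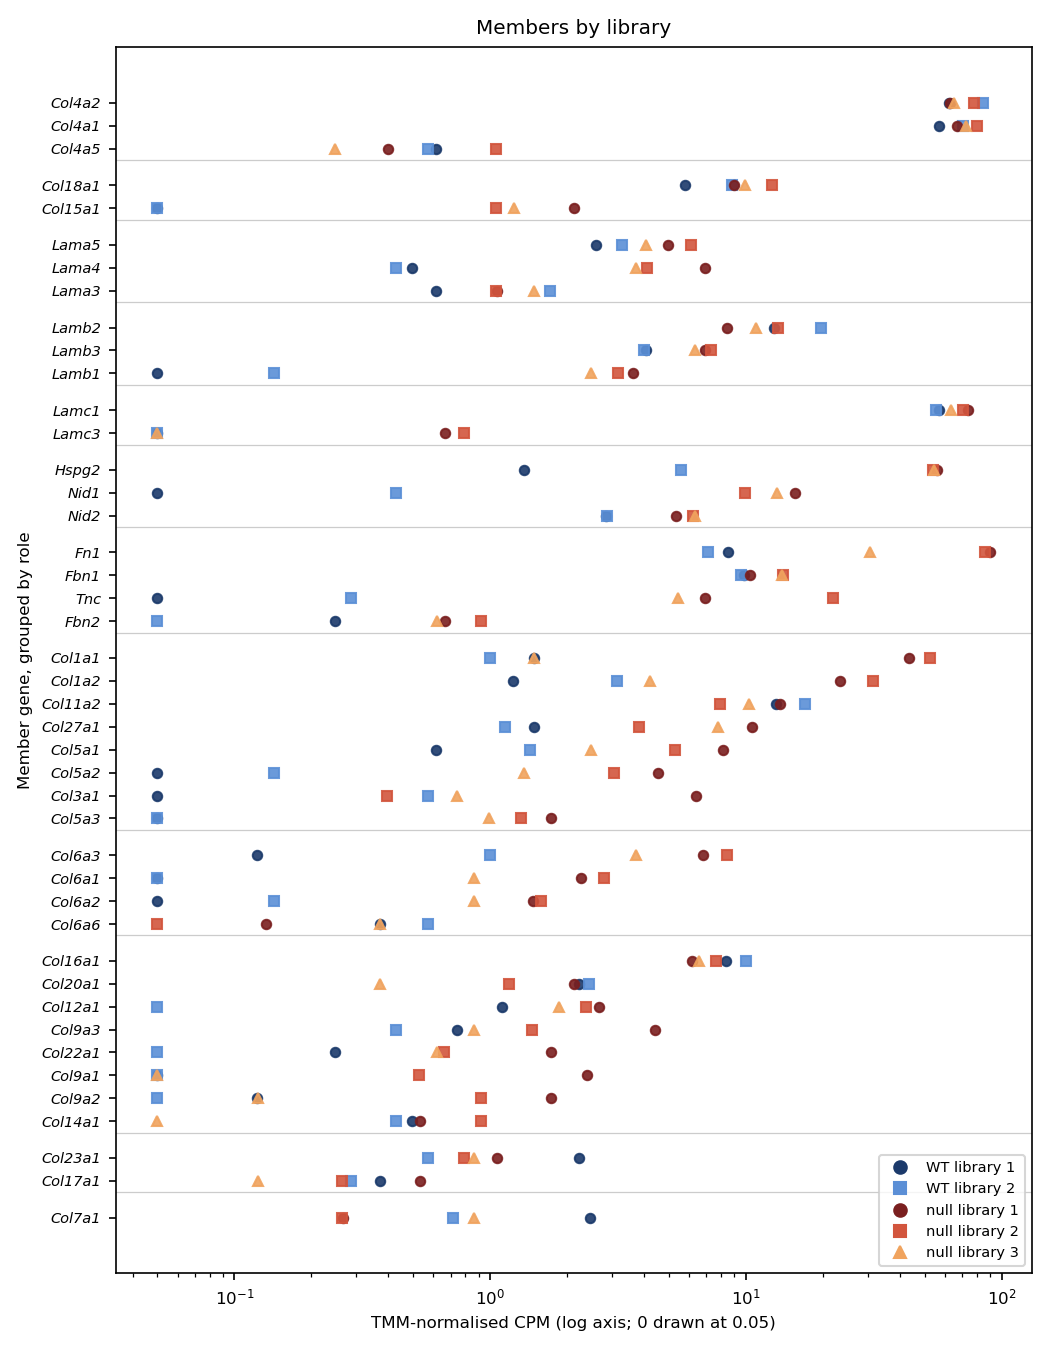
Normalised level of each of the 43 members in the 5 libraries, on a log axis in CPM with values of 0 drawn at 0.05, grouped by role. Col4a1, Col4a2 and Lamc1 sit above 50 CPM in WT, against null alike, while Nid1, Tnc, Lamb1 and Col5a2 are at or below 0.427 CPM in WT, against at or above 1.36 CPM in null.

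In each of the 12 called members every null library lay above each WT library. The same order held for 23 of the 30 tested members and for 15.5% of all tested genes, and the opposite order for 2 members, Col16a1 and Col20a1, and for 13.7% of all tested genes. In 5 tested members the groups overlapped. Among the 13 members that were not tested, with 11 to 61 counts in all, the null libraries lay above WT in 4 and the groups overlapped in 9.

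**Figure D2:**
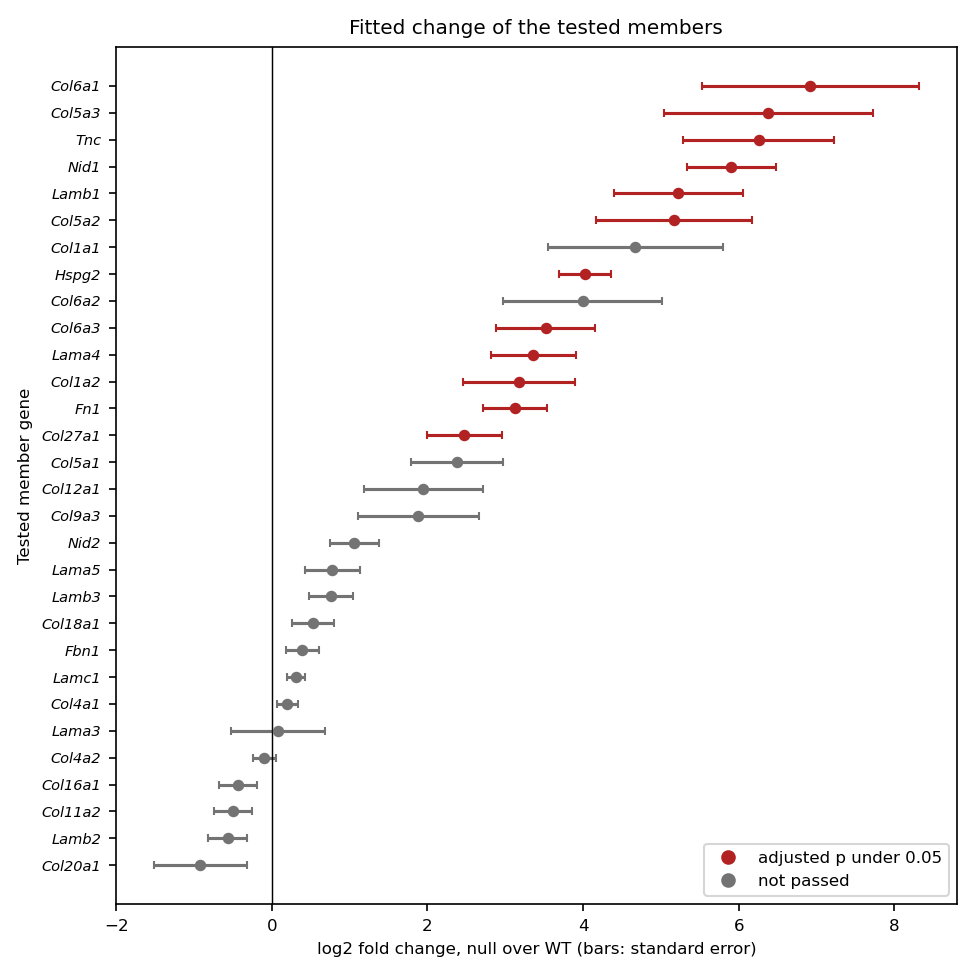
Fitted log2 fold change of null over WT for the 30 tested members with its standard error, red where the adjusted p was under 0.05. The 12 red members lie between 2.47 and 6.92, and the values for Col6a1 and Col5a3, which had no WT count, depend on the small count added in fitting and are not fold changes.

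Promoter stretches are shown for 4 members that the results turn on: Hspg2, Nid1 and Lamb1, whose transcripts were scarce in WT and read in every null library, and Lamb2, which was read in all 5. Each stretch runs 5′ to 3′ on the plus strand of GRCm38 (RefSeq, release GRCm38.p6), begins 250 bases before the RefSeq start and ends before the first annotated exon base. Capitals mark GC boxes (GGGCGG or CCGCCC) and CCAAT boxes (CCAAT or ATTGG), and no TATA box (TATAAA or TTTATA) was found in any of the 4 stretches. All 4 end short of the RefSeq start, so their box counts leave out the bases nearest to it. The stretches are Hspg2 at chr4:137468553-137468768, Nid1 at chr13:13437352-13437550, Lamb1 at chr12:31265043-31265233 and Lamb2 at chr9:108479612-108479735.
Hspg2: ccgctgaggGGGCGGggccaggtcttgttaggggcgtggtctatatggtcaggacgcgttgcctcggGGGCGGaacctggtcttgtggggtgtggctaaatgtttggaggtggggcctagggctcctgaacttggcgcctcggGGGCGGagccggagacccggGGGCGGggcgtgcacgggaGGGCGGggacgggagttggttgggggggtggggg
Nid1: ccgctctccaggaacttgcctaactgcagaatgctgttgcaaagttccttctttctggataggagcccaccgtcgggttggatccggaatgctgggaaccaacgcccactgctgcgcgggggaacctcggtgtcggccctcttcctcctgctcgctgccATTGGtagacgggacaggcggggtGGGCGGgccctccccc
Lamb1: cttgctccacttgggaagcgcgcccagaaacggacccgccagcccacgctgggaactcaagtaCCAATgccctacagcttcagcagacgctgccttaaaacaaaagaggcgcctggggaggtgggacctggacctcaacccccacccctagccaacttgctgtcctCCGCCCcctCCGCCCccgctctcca
Lamb2: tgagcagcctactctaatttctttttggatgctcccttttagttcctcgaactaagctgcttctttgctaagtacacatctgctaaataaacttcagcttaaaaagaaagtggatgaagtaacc

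The Hspg2 stretch of 216 bases held 5 GC boxes, that of Nid1 (199 bases) 1, that of Lamb1 (191 bases) 2 and that of Lamb2 (124 bases) 0. Over whole windows of 250 bases, 35 promoters of 30 members were in the table. A GC box was in 62.9% of these and in 32.7% of all 32851 promoters, a CCAAT box in 34.3% and 33.8%, and a TATA box in 14.3% and 12.4%, on either strand in each case. A match of letters is a description of the window and does not show that a factor binds there.

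Collagen IV, the network collagen of all basement membranes, passed in neither direction, and its chains had the highest WT levels per kilobase of exon among the members, at 11.1 CPM for Col4a2 and 8.52 CPM for Col4a1 (means). Col4a1 (chromosome 8, 11198423 to 11312826, mm10) was 56.7 and 70.5 CPM in WT, against 66.6, 80.1 and 72.4 CPM in null, and the log2 ratio of 0.20 ± 0.13 (SE) missed the threshold (edgeR adjusted p = 0.58). Its partner chain Col4a2 (chromosome 8, 11312805 to 11449287) was 61.9 and 84.4 CPM in WT, against 62.8, 77.6 and 64.7 CPM in null (log2 fold change -0.10 ± 0.15 SE, edgeR adjusted p = 0.861), and its direction turned without WT library 2, to 0.14 on the log2 scale. The groups overlapped for both genes. Col4a1 and Col4a2 are read from opposite strands, and their annotated first exons share 22 bases (11312805 to 11312826), so the counting of reads there is uncertain. Per kilobase of exon, Col4a1 was between 0.740 and 0.992 times Col4a2 in every library. The X-linked chain Col4a5 had 5 and 4 counts in WT and 3, 8 and 2 in null, and Col4a3, Col4a4 and Col4a6, the chains of kidney and some other specialised membranes, had at most 4 counts over all libraries.

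Laminins differed by chain. Lamc1, which encodes the gamma chain of most laminins (chromosome 1, 153218922 to 153332786), was 56.7 and 55.3 CPM in WT, against 73.9, 70.5 and 63.4 CPM in null. Each null library lay above WT, but the log2 fold change of 0.31 ± 0.12 (SE) did not pass (edgeR adjusted p = 0.268). Lamc3 had 0 counts in WT and 5, 6 and 0 in null.

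Among the beta chains Lamb1 passed and the other chains did not. Lamb1, the beta chain of most embryonic and vascular laminins (chromosome 12, 31265234 to 31329644), had 0 and 1 counts in WT and 27, 24 and 20 in null. This was a ratio of 46.4 from the summed counts, with an exact 95% interval of 8.06 to 1860 (edgeR adjusted p = 0.005). Lamb2 (chromosome 9, 108479736 to 108490530), an alternative beta chain, was 12.8 and 19.7 CPM in WT, against 8.39, 13.3 and 11.0 CPM in null, so the groups overlapped, and its log2 fold change of -0.57 ± 0.25 (SE) did not pass (edgeR adjusted p = 0.357). Lamb3, a chain best known from epithelia, was 4.06 and 3.99 CPM in WT, against 6.93, 7.26 and 6.29 CPM in null without passing (log2 fold change 0.76 ± 0.28 SE, edgeR adjusted p = 0.266).

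Laminin alpha chains, which carry the sites that cell receptors bind, were low throughout. Lama4, the alpha chain of endothelial laminin (chromosome 10, 38965515 to 39110188), had 4 and 3 counts in WT and 52, 31 and 30 in null, and rose by 3.36 ± 0.55 in log2 units (SE, edgeR adjusted p = 0.00601). Lama5, found in mature vessels and epithelia, was 2.58 and 3.28 CPM in WT, against 4.93, 6.07 and 4.07 CPM in null (log2 fold change 0.78 ± 0.35 SE, edgeR adjusted p = 0.381). Lama3 overlapped between the groups, at 5 and 12 counts in WT and 8, 8 and 12 in null (edgeR adjusted p = 0.979). The calls for Lama4 and Lamb1 were lost without either WT library, with the lone WT library assumed to vary like the null ones.

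**Figure D3:**
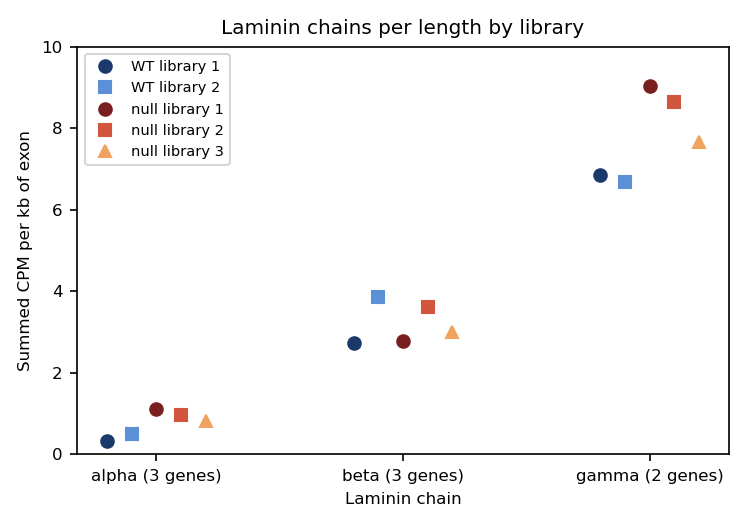
Summed CPM per kilobase of exon of the member laminin genes of each chain, by library. Gamma chains reach 6.68 to 9.05 in every library, beta chains 2.72 to 3.85, and alpha chains 0.325 and 0.482 in WT and 0.802 to 1.11 in null.

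A trimer needs 1 chain of each kind, and the chain transcripts were far from equal. Per kilobase of exon, alpha chains summed to 0.325 and 0.482 CPM in WT, against 1.11, 0.970 and 0.802 CPM in null. Beta chains summed to 2.72 and 3.85 CPM in WT, against 2.79, 3.61 and 3.00 CPM in null. Gamma chains summed to 6.86 and 6.68 CPM in WT, against 9.05, 8.65 and 7.66 CPM in null. Gamma was thus the most abundant and alpha the least in each of the 5 libraries. Lamb1 was at most 0.0406 times Lamc1 on this scale.

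Hspg2 and Nid1 were the called members that passed under every alternative that tested them. Hspg2, which encodes perlecan, the large proteoglycan that stores growth factors in basement membranes (chromosome 4, 137468769 to 137570630), was 1.35 and 5.55 CPM in WT, against 55.8, 53.8 and 54.4 CPM in null. The 3 null libraries had an SD of 1.03 CPM and all lay above both WT libraries, of which library 1 was the lower. Its log2 fold change was 4.03 ± 0.33 (SE, edgeR adjusted p = 9.62e-05). It was 3.28 without WT library 1 and 5.32 without WT library 2, so the size of the difference depended on which WT library was used. Nid1, which encodes the protein that bridges laminin and collagen IV (chromosome 13, 13437551 to 13512269), had 0 and 3 counts in WT and 117, 75 and 107 in null. The ratio from the summed counts was 65.1 (exact 95% interval 22.1 to 317; edgeR adjusted p = 0.000257). Its paralogue Nid2 was 2.83 and 2.85 CPM in WT, against 5.33, 6.20 and 6.29 CPM in null, and the log2 ratio of 1.06 ± 0.32 (SE) missed the threshold (edgeR adjusted p = 0.133). Per kilobase, Nid1 was 0 and 0.112 times Nid2 in WT and 2.18, 1.19 and 1.56 times Nid2 in null, so the more abundant nidogen transcript differed between the genotypes.

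The multiplexins, basement membrane collagens whose ends release antiangiogenic fragments, were low. Col18a1 was 5.78 and 8.83 CPM in WT, against 8.93, 12.7 and 9.86 CPM in null (log2 fold change 0.53 ± 0.27 SE, edgeR adjusted p = 0.446). Col15a1 had no count in WT and 16, 8 and 10 in null, which is at least 7.4-fold higher when 3 counts are set for the WT pair, and it was not tested.

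Fibronectin, the adhesive glycoprotein bound by integrins on stem and progenitor cells, and tenascin-C, a matrix protein of the marrow niche and of growing tissue, also rose. Fn1 (chromosome 1, 71585520 to 71653200) was 8.49 and 7.12 CPM in WT, against 90.1, 85.9 and 30.6 CPM in null, giving a log2 ratio of 3.13 ± 0.41 (SE; edgeR adjusted p = 0.00164). Null library 3 was the lowest of the null libraries but stood above WT. Tnc (chromosome 4, 63959785 to 64047015) had 0 and 2 counts in WT and 52, 165 and 44 in null, a ratio of 85.2 (exact 95% interval 23.4 to 707; edgeR adjusted p = 0.00428). Fbn1, the main microfibril protein, was 9.85 and 9.54 CPM in WT, against 10.4, 14.0 and 13.8 CPM in null and did not pass (log2 fold change 0.39 ± 0.22 SE, edgeR adjusted p = 0.499). Fbn2 had 2 and 0 counts in WT and 5, 7 and 5 in null and was not tested. Without either WT library the calls for Fn1 and Tnc were lost, and limma-voom did not call Tnc.

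Fibrillar collagens were uneven between null libraries. Type I collagen, the fibre of bone and tendon, has a pair of alpha1 chains and a single alpha2 chain. Col1a1 (chromosome 11, 94936224 to 94953042) had 12 and 7 counts in WT and 325, 398 and 12 in null. Null library 3 thus had the same count as WT library 1 (1.480 and 1.477 CPM), and the log2 fold change of 4.67 ± 1.12 (SE) did not pass (edgeR adjusted p = 0.0523), although it passed without null library 3, without null library 1, with no filter and with the filter of at least 1 CPM in every library (edgeR adjusted p = 0.0462 in the last). Col1a2 (chromosome 6, 4504814 to 4541544) had 10 and 22 counts in WT and 174, 237 and 34 in null. It rose by 3.18 ± 0.72 in log2 units (SE, edgeR adjusted p = 0.0383), a call that was lost in DESeq2, in limma-voom, without either WT library and without null library 2. Without WT library 2 its log2 ratio was 3.96. Per kilobase of exon, Col1a1 was 2.27 and 0.603 times Col1a2 in WT and 3.54, 3.18 and 0.668 times in null, so null library 3 also resembled WT library 2 in this ratio.

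Type V collagen, which nucleates type I fibrils, was scarce in WT. Col5a2 had 0 and 1 counts in WT and 34, 23 and 11 in null, a ratio of 44.4 (exact 95% interval 7.71 to 1780; edgeR adjusted p = 0.0166). Col5a3 had no count in WT and 13, 10 and 8 in null, at least 6.75-fold higher when 3 counts are set for the WT pair (edgeR adjusted p = 0.0316). Col5a1 was 0.615 and 1.42 CPM in WT, against 8.13, 5.28 and 2.47 CPM in null, and did not pass (log2 fold change 2.38 ± 0.59 SE, edgeR adjusted p = 0.0603), except without a filter, in DESeq2 and without null library 3. The calls for Col5a2 and Col5a3 were lost without either WT library.

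The other fibrillar members went different ways. Col27a1, a fibrillar collagen known from cartilage, was 1.48 and 1.14 CPM in WT, against 10.5, 3.83 and 7.77 CPM in null, giving a log2 ratio of 2.47 ± 0.48 (SE; edgeR adjusted p = 0.0172) that was lost in limma-voom and without either WT library. Col11a2, a chain of cartilage collagen XI that lies on chromosome 17 (34039437 to 34066685) as does Gabbr1, was 13.0 and 16.9 CPM in WT, against 13.6, 7.92 and 10.2 CPM in null, and did not pass (log2 fold change -0.50 ± 0.24 SE, edgeR adjusted p = 0.425). Col3a1, the fibrillar collagen of vessels and soft tissue, had 0 and 4 counts in WT and 48, 3 and 6 in null. Its reads came mainly from null library 1, the groups overlapped, and it was not tested.

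Collagen VI, whose beaded filaments surround cells, was near 0 in WT for its main 3 chains. Col6a1 had no count in WT and 17, 21 and 7 in null, at least 9.8-fold higher when 3 counts are set for the WT pair (edgeR adjusted p = 0.0253). Col6a2 had 0 and 1 counts in WT and 11, 12 and 7 in null, a ratio of 19.6 (exact 95% interval 3.26 to 799) that did not pass (edgeR adjusted p = 0.0711). Col6a3 had 1 and 7 counts in WT and 51, 64 and 30 in null and rose by 3.52 ± 0.64 in log2 units (SE, edgeR adjusted p = 0.0113). In all 3 genes null library 3 had the fewest counts of the null libraries. Col6a6 had 3 and 4 counts in WT and 1, 0 and 3 in null. The calls for Col6a1 and Col6a3 were lost without either WT library, and limma-voom did not call Col6a3, whose log2 ratio was 5.50 without WT library 2 and 2.63 with WT library 1 left out.

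None of the 8 fibril-associated collagens, which decorate other fibrils, was called by edgeR, and 2 of the 4 tested were higher at an unadjusted p under 0.05. Col16a1, with the most counts among them, was 8.37 and 9.97 CPM in WT, against 6.13, 7.65 and 6.54 CPM in null, each null library below WT (log2 fold change -0.43 ± 0.25 SE, edgeR adjusted p = 0.511). Col20a1 had 18 and 17 counts in WT and 16, 9 and 3 in null (log2 fold change -0.92 ± 0.60 SE, edgeR adjusted p = 0.583). Col12a1 had 9 and 0 counts in WT and 20, 18 and 15 in null (log2 fold change 1.95 ± 0.77 SE, edgeR adjusted p = 0.294).

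Collagen IX, the fibril-associated collagen of cartilage, had its highest counts in null library 1. Its chain Col9a3 had 6 and 3 counts in WT and 33, 11 and 7 in null (edgeR adjusted p = 0.329). Col9a1 had no count in WT and 18, 4 and 0 in null, and Col9a2 had 1 and 0 counts in WT and 13, 7 and 1 in null. Both were untested, as were Col14a1 with 18 counts in all and Col22a1 with 25.

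Epithelial anchoring and transmembrane collagens did not share the higher reads in null. Col7a1, the collagen of anchoring fibrils in skin, had 20 and 5 counts in WT and 2, 2 and 7 in null. Col23a1 had 18 and 4 counts in WT and 8, 6 and 7 in null, and Col17a1, of hemidesmosomes, had 3 and 2 in WT and 4, 2 and 1 in null. All 3 overlapped between the groups, WT library 1 was the highest for Col7a1 and Col23a1, and none of them was tested.

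**Figure D4:**
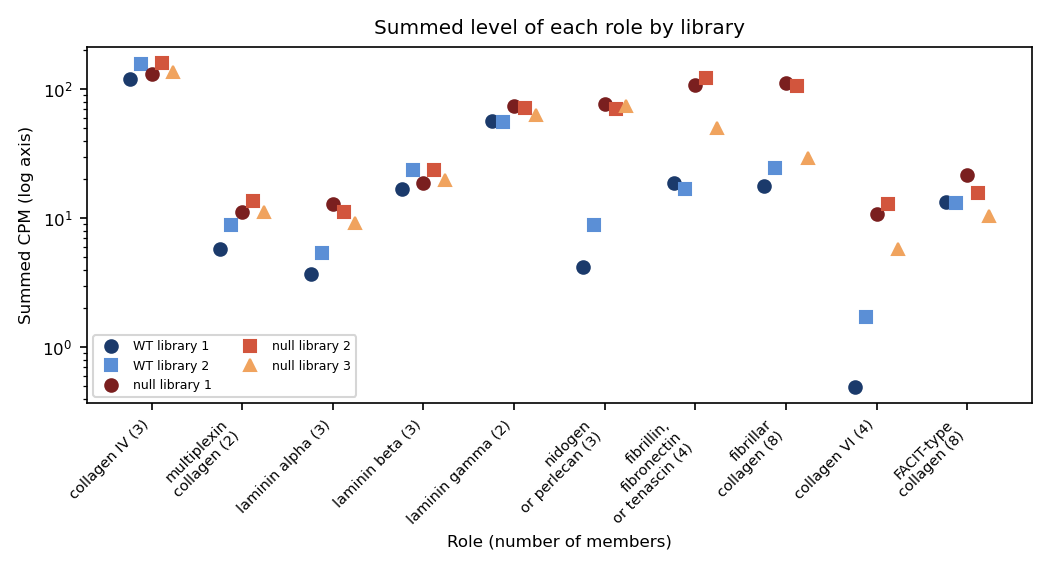
Summed CPM of the members of each role in each library, on a log axis, with the number of members in brackets. Nidogens and perlecan sum to 4.19 and 8.83 CPM in WT, against 69.9 to 76.8 CPM in null, while fibrillar collagens sum to 17.9 and 24.4 CPM in WT, against 111, 106 and 29.2 CPM in null libraries 1, 2 and 3.

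Summed over all 43 members, expression was 262 and 315 CPM in WT, against 578, 607 and 412 CPM in null. Collagens summed to 162 and 205 CPM in WT, against 286, 308 and 196 CPM in null, so null library 3 lay within the WT range. Laminins summed to 77.3 and 84.5 CPM in WT, against 106, 106 and 92.3 CPM in null, without overlap.

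Null library 3 was low for some members and level with the other null libraries for others. Among the 30 members with at least 30 counts in null, its level was under 0.5 times the mean of null libraries 1 and 2 in 10 and between 0.5 and 2 times that mean in 20. Those 10 were Col1a1 (0.0309 times), Col1a2 (0.154), Col3a1 (0.218), Col9a3 (0.295), Col6a1 (0.343), Fn1 (0.348), Col5a2 (0.358), Col5a1 (0.368), Tnc (0.378) and Col6a3 (0.485). Hspg2, Nid1, Nid2, Lamb1 and Lama4 were at 0.992, 1.04, 1.09, 0.729 and 0.671 times that mean. No laminin, collagen IV, multiplexin, nidogen or perlecan gene with that many counts was under 0.5 times. The other roles were mixed. Among fibrillar collagens Col27a1, Col11a2 and Col5a3 were at 1.08, 0.951 and 0.646 times, among fibril-associated collagens Col16a1 and Col12a1 at 0.948 and 0.734 times, Col6a2 at 0.566 times and Fbn1 at 1.13 times. Of the 12 called members, 6 were under 0.5 times. This is an order among 3 libraries of 1 genotype, and no test was made of it.

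**Figure D5:**
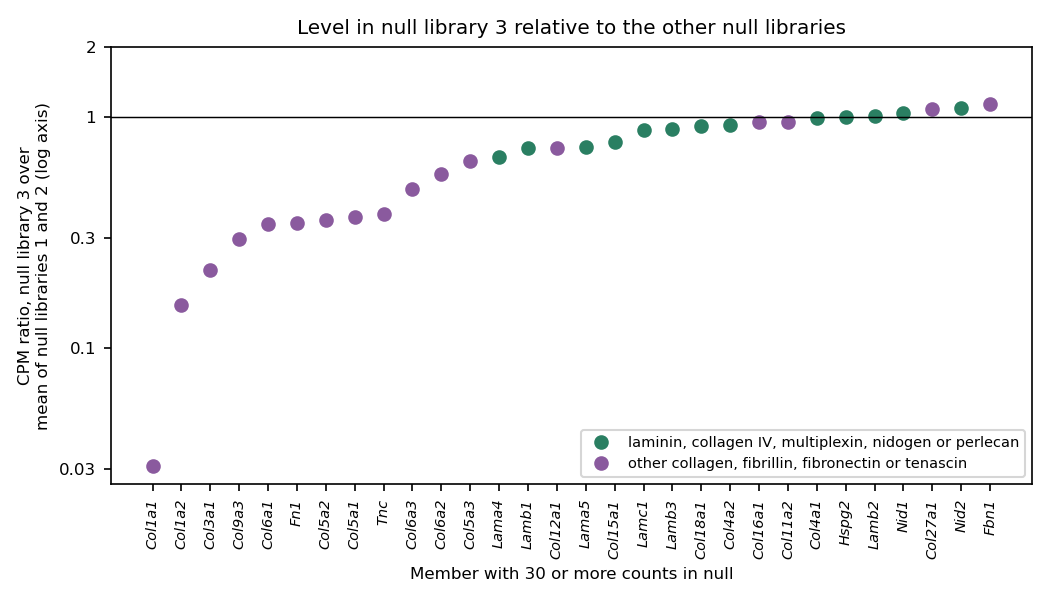
Level in null library 3 divided by the mean of null libraries 1 and 2, on a log axis, for the 30 members with at least 30 counts in null. Green basement membrane members lie between 0.671 and 1.09 times, and purple members spread from 0.0309 times for Col1a1 to 1.13 times for Fbn1.

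Some markers of other cells differed between the same libraries, and their part in these results was not tested. Of 12 endothelial markers, all tested, 4 were higher in null (Cdh5, Kdr, Stab2 and Flt4) and 0 lower by edgeR (7 and 2 at an unadjusted p under 0.05), no marker was at 0 in WT, and the list summed to 399 and 456 CPM in WT, against 474 to 501 CPM in null. The endothelial cadherin gene Cdh5 was 0.615 and 1.71 CPM in WT, against 21.3, 17.2 and 20.2 CPM in null. Stab2, a scavenger receptor of marrow sinusoids, was 0.369 and 1.14 CPM in WT, against 18.1, 17.6 and 21.9 CPM in null. For both genes null library 3 was as high as the other null libraries, as for Hspg2 and Nid1. The summed B-lineage markers given below were also not low in it. Pecam1 and Egfl7, the endothelial markers with the most counts, did not pass (edgeR adjusted p = 0.211 and 0.324), and both are also expressed by blood stem cells. Egfl7 and Esam, the 2 lower at an unadjusted p under 0.05, had every null library below WT, with log2 fold changes of -0.31 and -0.54. Esam was named after its value was seen.

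The summed cartilage markers were lowest among null in library 3. The list of 10 summed to 1.11 and 1.42 CPM in WT, against 153, 131 and 21.1 CPM in null libraries 1, 2 and 3. Most of the null sum was Col10a1, at 96.3, 93.4 and 13.8 CPM. Col10a1, Col2a1 and Col11a1 are on this list and are the collagens left out of the members by name. Acan, Col2a1, Hapln1 and Sox9 had no WT count, and Sox9 none in any library. Of 5 tested, 3 were higher and 0 lower. That count was 0 without either WT library, 5 without null library 3, 5 in DESeq2 and 1 in limma-voom. Of 9 markers of bone-forming cells, 4 were tested and 2 were higher, Alpl and Spp1, and 1 without either WT library. Bglap2, Dmp1, Phex and Sp7 had no WT count, and the list summed to 227 to 248 CPM in WT, against 260 to 311 CPM in null, most of it Runx2 (210 to 242 CPM). Alpl, the alkaline phosphatase of osteoblasts, was 4.31 and 1.85 CPM in WT, against 28.5, 32.6 and 39.8 CPM in null, so that null library 3 was not low in it. Spp1, which encodes osteopontin, was 2.09 and 1.99 CPM in WT, against 27.2, 41.3 and 7.77 CPM in null.

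Of 9 markers of marrow stroma, 4 were tested and 2 were higher, Cxcl12 and Lepr, and 0 lower, with 1 higher without either WT library. Kitl, Lepr and Pdgfra had no WT count, and the list summed to 55.1 and 82.0 CPM in WT, against 85.2 to 106 CPM in null. Most of that sum was Pdgfrb, at 51.2 and 73.1 CPM in WT, against 69.8, 64.0 and 57.7 CPM in null. Its groups overlapped and it did not pass (log2 fold change 0.04, edgeR adjusted p = 0.95). Cxcl12, the chemokine that retains stem cells, was 0.369 and 2.56 CPM in WT, against 16.1, 22.2 and 13.3 CPM in null. Of 6 pericyte and smooth muscle markers 1 was tested and none was called (0 at an unadjusted p under 0.05), Myh11 and Rgs5 had no WT count, and the sum was 4.06 and 6.98 CPM in WT, against 4.81 to 6.53 CPM in null. Of 6 macrophage markers 3 were tested and none was called (2 higher at an unadjusted p under 0.05), with sums of 7.38 and 11.1 CPM in WT, against 12.3 to 23.6 CPM in null.

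Blood lineage markers differed by list. All 6 B-lineage markers were higher, but not all passed without WT library 2. Their list sums were 111 and 37.2 CPM in WT, against 699.65, 400.2 and 675 CPM in null libraries 1, 2 and 3. Of 5 megakaryocyte markers 4 were tested and only Pf4 passed, a call lost in limma-voom and without either WT library (list sums of 40.0 and 39.9 CPM in WT, against 60.5 to 64.1 CPM in null). Gp9, named after its value was seen, had every null library below WT and did not pass (log2 fold change -0.64, edgeR adjusted p = 0.354). The 5 neutrophil markers summed to 136 and 99.8 CPM in WT, against 2072, 551 and 125 CPM in null, with none called by edgeR, although 5 were higher at an unadjusted p under 0.05. Null library 3 lay within the WT range of that sum, and 5 passed without null library 3 and 3 without null library 1. Hlf, a stem cell transcription factor gene listed for the LSK gate, was 692 and 677 CPM in WT, against 424, 526 and 442.5 CPM in null, and was lower (log2 fold change -0.56 ± 0.13 SE, edgeR adjusted p = 0.0398). Hlf did not pass without WT library 2 or without null library 3. No marker of these lists was at 0 in WT.

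Enzymes and chaperones that process collagen chains included a pair of called genes. Of 32, 21 were tested, 2 were higher and 0 lower, beside 2.15% and 0.334% of all tested genes. At an unadjusted p under 0.05, 5 were higher and 2 lower, beside 7.99% and 4.84%. The median log2 fold change of the list was -0.04. The 2 called genes were Pxdn, the peroxidase that crosslinks collagen IV, and Lox, the oxidase that crosslinks fibrillar collagen and elastin. Pxdn had 0 and 4 counts in WT and 49, 45 and 38 in null (edgeR adjusted p = 0.00448), and Lox 1 and 1 in WT and 24, 32 and 11 in null (edgeR adjusted p = 0.0172). P4hb, a subunit of prolyl hydroxylase and of other enzymes, and Colgalt1, a collagen galactosyltransferase, had the most counts and neither passed (edgeR adjusted p = 0.818 and 0.947). Without WT library 1, 0 of the list passed, and without WT library 2, 1.

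Other basement membrane and matrix lists each held at most 2 called genes, to be read beside the 2.15% of all tested genes called higher. Of 18 further basement membrane genes, 9 were tested and 2 were higher and 0 lower. These were Sparc, a collagen-binding protein of bone and vessels at 0.246 and 0.997 CPM in WT, against 33.2, 25.5 and 21.9 CPM in null, and Npnt, an integrin ligand at 0.123 and 0.855 CPM in WT, against 3.07, 3.43 and 5.18 CPM in null (edgeR adjusted p = 4.77e-05 and 0.0284). Agrn, which encodes agrin, had the most counts of the list and did not pass (edgeR adjusted p = 0.959). Without either WT library, and without null library 3, 1 gene of this list passed. Of 16 elastic fibre genes, 6 were tested and only Lox was higher, which held neither in limma-voom nor with a WT library left out. Of 11 small leucine-rich proteoglycans only Bgn, biglycan, was tested and it did not pass (edgeR adjusted p = 0.0927), and 9 had no WT count. Of 20 other adhesive glycoprotein entries, 17 were in the table, 9 were tested and 2 were higher, Spp1 and Ccn2, and 0 in limma-voom and without either WT library.

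Proteases and their inhibitors included 6 higher and 0 lower genes among 14 tested of 22, beside 2.15% and 0.334% of all tested genes. The 6 were Mmp11, Mmp13, Mmp14, Timp3, Adamts5 and Adamts9. Of this list, limma-voom called 3 higher and DESeq2 7, and 4 were higher without null library 2. The filter of at least 1 CPM in every library tested 8 and called 3 higher. Mmp14, the membrane collagenase, had 11 and 7 counts in WT and 62, 53 and 46 in null (edgeR adjusted p = 0.0037). Mmp13, the collagenase of growth cartilage, had 1 and 0 counts in WT and 81, 107 and 16 in null (edgeR adjusted p = 0.00807), lowest among null in library 3. Timp3, an inhibitor that is held in the matrix, had 19 and 10 counts in WT and 46, 49 and 46 in null (edgeR adjusted p = 0.0304). Without either WT library 0 genes of this list passed.

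Few receptors for these matrix proteins passed. Of 26, 19 were tested, 1 was higher and 1 lower, beside 2.15% and 0.334% of all tested genes. At an unadjusted p under 0.05, 4 were higher and 1 lower, beside 7.99% and 4.84%. Cd44, the hyaluronan receptor, and Itgb1, the integrin beta chain shared by collagen, laminin and fibronectin receptors, were 326 to 366 CPM and 215 to 278 CPM over the 5 libraries, and neither passed (edgeR adjusted p = 0.783 and 0.992). Sdc4, a heparan sulphate co-receptor for fibronectin, was 18.7 and 18.5 CPM in WT, against 58.6, 38.5 and 64.4 CPM in null (log2 fold change 1.53 ± 0.21 SE, edgeR adjusted p = 0.00185). Bcam, a receptor for the Lama5 chain, was 31.0 and 35.7 CPM in WT, against 14.8, 21.9 and 18.0 CPM in null (log2 fold change -0.87 ± 0.18 SE, edgeR adjusted p = 0.0257). Neither gene passed once a WT library was left out, and Bcam did not pass without null library 3.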

How the data were processed

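The deposited table held raw counts per gene for 5 libraries, in 1 column each, with no normalization. The authors used STAR, featureCounts and mm10, per the submitters' processing notes, with versions, strand setting and the handling of multiply matching reads not given in the sources used here. Exons of 18 members overlap another annotated gene (Fn1 by 292 bases, Fbn1 by 2442, Nid1 by 143, Tnc by 176, Nid2 by 437), where reads could be split. Per the labels' protocols, 3.6 to 5 ng of RNA entered a ribosomal depletion kit with paired reads of 50 bases. The labels' molecule field names polyA RNA instead. Identifiers were matched to GENCODE M21 for 99.5% of genes.

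After filterByExpr and TMM scaling, genotype was tested by quasi-likelihood in edgeR 4.0.16 under R 4.3.3, without covariates and with 3 residual degrees of freedom. Benjamini-Hochberg adjustment ran over all tested genes, with 0.05 as the threshold. Fold changes are null over WT, and standard errors come from the F statistic. With 0 WT counts, a bound against 3 counts over the WT group is given, and with 1 to 3 a ratio with an exact binomial interval, which covers counting error only. Levels per kilobase use the union of annotated exons. Alternatives were RLE factors, other filters, DESeq2 1.42.0, limma-voom (limma 3.58.1), an adjusted p under 0.1, a minimum of 50 counts and each library left out. The code was tested on simulated data. Chi-square values per degree of freedom between libraries of a group were 7.61 to 12.0, so none was a repeat sequencing of another library. Whether any came from the same animal or pool cannot be told this way.

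The members and lists were chosen with earlier results of these data known. Any member could be named. Each member that passed, or that was tested and had at least 50 counts, is given in full. List genes are named if called or among the 2 with the most counts, and markers at 0 in WT are named beside their list. Gabbr1, Kit and Ly6a are named as checks of the labels. 3 list entries matched no gene. Some genes of the family and of the lists are not reported here.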

Additional observations from a re-analysis of the deposited data

How the results depend on the processing

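No paired analysis was possible because the columns carry no replicate numbers shared between genotypes. Of 12 members called higher, 2 (Hspg2 and Nid1) were called in every alternative that tested them, 10 lost the call in at least 1, and none turned direction. Leaving out each library gave 2 to 14 members higher, with 2 without WT library 1 and 2 without WT library 2, where 1 WT library remained, and 0 lower each time. A filter of at least 1 CPM in every library tested 16 members and called 5. With no filter 43 were tested and 18 called. Adjusted p-values of that unfiltered fit were far smaller (1.16e-71 for Hspg2, against 9.62e-05), for which the cause was not tested. RLE factors, DESeq2 and limma-voom called 12, 12 and 9, a threshold of 0.1 gave 15 and a minimum of 50 counts gave 10. Over all genes, 289 were higher and 45 lower. These became 602 and 155 with no filter, and 173 were higher with the stricter filter. Leaving out each library gave 32 to 316 higher and 0 to 51 lower, with 0 lower without WT library 2 and 15 without null library 3. The log2 fold change of Col4a2 was -0.32 to 0.14 when each library was left out, positive only without WT library 2. The cause of these shifts was not tested, beyond the fewer libraries or genes in each fit. Members at 1 to 3 WT counts have intervals that span more than 10-fold, so the size of their change is poorly bounded at this depth.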
